A study of Drosophila melanogaster with 2 samples.

Results

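Genes of the cell cycle and of DNA replication were examined in Drosophila larvae that carried extra dASF/SF2. A list of 42 genes was set by function, from the G1 cyclins to the checkpoint kinases. The rule for membership uses no measured value, but the list was chosen with earlier results of these data known. Probes were assigned to them where the platform annotation gave 1 gene symbol. In this way 31 genes had 37 probes out of 15744 on the array, and all 31 had a value on both arrays from at least 1 probe. Of the 37 probes, 34 were measured on both arrays, 2 on array 2 alone and 1 on neither. The other 11 genes (dap, Mcm7, RnrS, geminin, CycA, stg, Cdk1, polo, aurA, BubR1 and wee, now Wee1) were not analysed here.

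Each of 2 dual-colour arrays set polyA RNA of larvae from the cross GMR X GFP-dASF/SF2 against polyA RNA of larvae from GMR X GFP-NLS, the control. Both crosses share GMR and a GFP transgene, so they differ in whether GFP is joined to dASF/SF2, an SR protein that acts in pre-mRNA splicing, or to a nuclear localisation signal. The GMR enhancer acts in the eye disc behind the morphogenetic furrow, and the control carries it too. This limits the larvae as a model, since their RNA can come from tissues other than the eye disc. Array 1 had GFP-dASF/SF2 RNA in Cy5 and GFP-NLS RNA in Cy3, and array 2 had the dyes swapped. The labels state no larval age, sex, dissected tissue, pool size or insertion line. Nor do they say whether the arrays used separate RNA extracts, so every p-value reflects array-to-array spread that could be technical alone. The arrays also differ in dye order, so that spread holds any effect of the dyes.

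The values are log ratios of the 2 channels on the deposited scale, whose log base and numerator are not stated, with the median of each array set to 0. They were read as running by dye, so the sign of array 2 was turned before averaging. Where the ratio has Cy5 on top, a positive value then stands for more RNA in GFP-dASF/SF2 larvae than in GFP-NLS larvae, and with Cy3 on top for less. Because the labels list GFP-dASF/SF2 as the second channel on both arrays, the values could instead already run by genotype, and the mean without turning is given beside the main value of each member. If the values do run by dye, the mean without turning holds the difference between the dyes and not that between the genotypes. Sides and rankings below hold for the turned values unless said otherwise. Where a gene is given with a pair of log ratios, array 1 comes before array 2, and array 2 is turned unless said otherwise. Log ratios hold no expression levels, so the larval stage and tissue could not be checked against marker levels. SF2 (CG6987), the gene of the overexpressed protein, had log ratios of -0.032 on array 1 and -0.137 on array 2 after turning. Its mean of -0.0845 ± 0.0742 (SD, n = 2 arrays) did not pass the limma test (adjusted p = 0.999, 95% interval -0.323 to 0.154), and its mean without turning was 0.0525 ± 0.12 (SD, n = 2, limma adjusted p = 0.996). Whether the probe lies in the transgene is not stated, so neither value checks the labels.

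Cells enter S phase when cyclin E with Cdk2 is active and E2F, released from the retinoblastoma protein, turns on its target genes. Replication origins are licensed beforehand by the origin recognition complex, Cdc6 and the Cdt1 protein dup, which load the MCM helicase. Mitotic cyclins then drive division, and the anaphase-promoting complex ends it. In the larva, imaginal discs, brain neuroblasts and gonads divide, while the salivary gland, fat body and gut mostly replicate DNA without dividing. In the eye disc, cells behind the furrow pass through the second mitotic wave and then leave the cycle, in the region where GMR is active.

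No member was called. Over all 9266 genes measured on both arrays, limma called 0 at an adjusted p under 0.05 (percent called 0), and among the 31 members it also called 0, the lowest adjusted p being 0.610. At an unadjusted p under 0.05 there was 1 member, CycB, or 3.23% of the members, where the background was 7.27% of all genes. The ordinary t statistic also called 0 members after adjustment, with 4, or 12.9% of the members, at an unadjusted p under 0.05, where the background was 5.12%. These were CycE, CycB, Bub1 and Mcm2, whose values nearly matched on the 2 arrays, the only spread that statistic uses. Without turning, 2 members had an unadjusted p under 0.05 by the ordinary t statistic, beside 461 of all 9266 genes. Read without turning array 2, limma called 0 members (background 0), and 0 had an unadjusted p under 0.05, where the background was 4.21%. Since the RNA was not separated by cell type, fewer dividing cells and less RNA per cell cannot be told apart in any of these values.

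Member values lay within the middle range of all genes. Their 2-array means ran from -0.2285 for E2f1 to 0.2545 for CycB, and 0 of 31 lay outside the 2.5 to 97.5 percentile range of all genes, which was -0.267 to 0.352. Without turning, the means ran from -0.1675 to 0.2215, and again 0 of 31 lay outside the corresponding range of -0.25 to 0.313. The median absolute mean was 0.072 for the members and 0.0735 for all genes. The median of the members was -0.019, beside -0.001 for all genes. On array 1 the members' median was -0.002, and on array 2 it was -0.052 after turning.

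**Figure D1:**
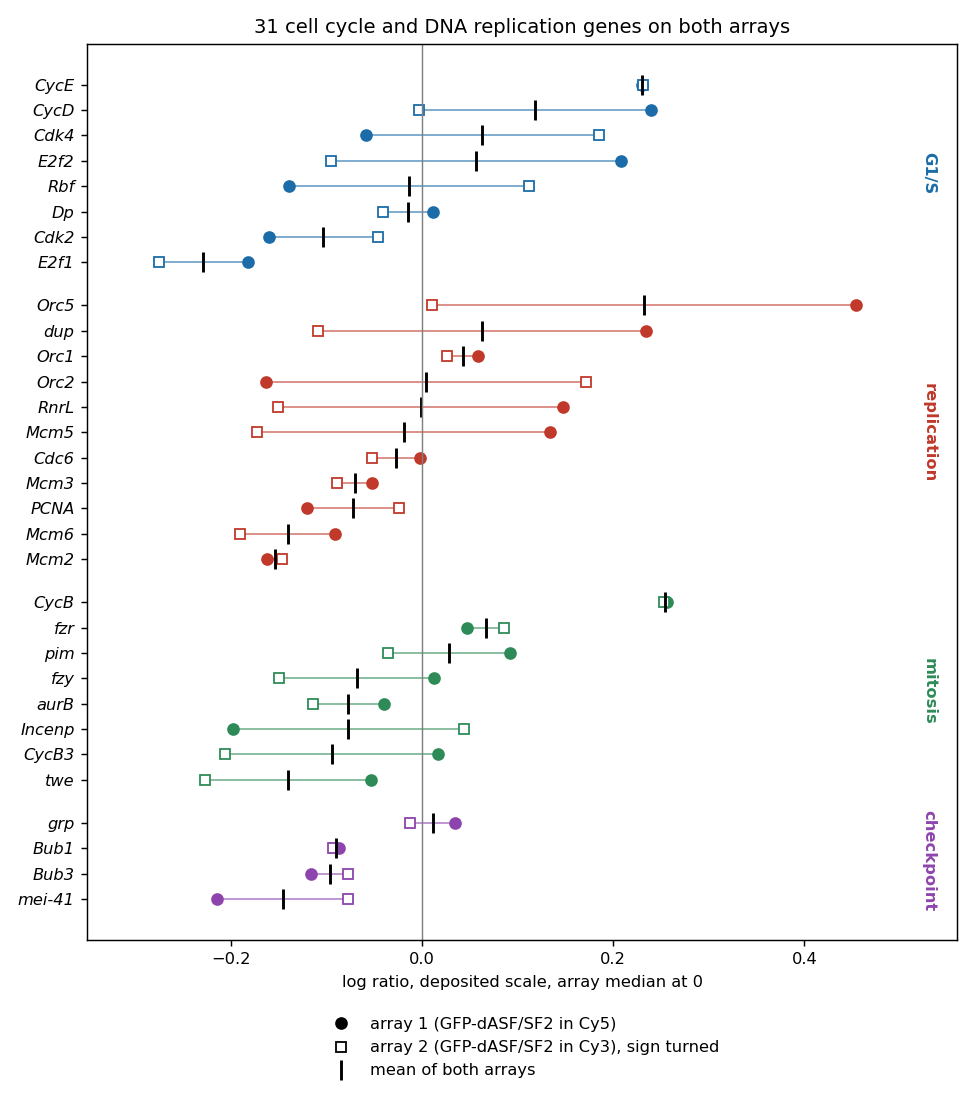
Log ratio of GFP-dASF/SF2 over GFP-NLS larvae on the x axis (deposited scale, array median at 0, positive side as Cy5 over Cy3) for 31 member genes in rows, grouped by role. Filled circles are array 1, open squares array 2 after turning and bars the 2-array mean. CycB and CycE lie on the positive side at nearly equal values on both arrays, E2f1 and Mcm2 on the negative side, and Orc5 has 0.454 on array 1 against 0.011 on array 2.

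On both arrays 12 members lay on the negative side, 38.7% of the members against a background of 25.0% of all genes. Another 5, or 16.1%, lay on the positive side on both arrays, against a background of 24.0%. The negative members were Cdk2, E2f1, PCNA, Mcm2, Mcm3, Mcm6, Cdc6, twe, aurB, Bub1, Bub3 and mei-41, and the positive ones were CycE, CycB, Orc1, Orc5 and fzr. Together 17 members, or 54.8%, kept 1 side after turning, where the background was 49.0%, and the other 14 had turned values of opposite sign. Without turning, 14 members, or 45.2%, had the same sign on both arrays, where the background was 50.2%. Of these, 10 members were positive on both arrays (32.3%, background 26.0%) and 4 negative on both (12.9%, background 24.3%). The side with more members thus differed between the 2 readings. On array 1, 15 of the 31 members were above the array median, and on array 2 as deposited 22 were, where the counts over all 9266 genes were 4649 and 4728. These counts carry no test. The same background shares apply to the counts of each role group and list below.

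Among the G1/S genes, CycE (CG3938), the cyclin that brings cells into S phase, had the highest mean after turning. Its log ratios were 0.230 on array 1 and 0.231 on array 2 after turning, averaged over 3 probes. The mean of 0.2305 (SD 2.36e-04, n = 2 arrays) had a limma 95% interval of -0.0040 to 0.465 and an adjusted p of 0.698. The close match of the arrays arose in the average, since the probes themselves differed. Probe 2877 gave 0.631 and 0.193, probe 4189 gave 0.173 and 0.222, and probe 5501 gave -0.113 and 0.277. On array 1 the probes therefore spanned both sides, while on array 2 all 3 lay on the positive side after turning. Without turning, the probe means were 0.219, -0.0245 and -0.195, and the CycE mean was -0.000167 ± 0.326 (SD, n = 2), near the array median. The highest mean of the G1/S genes was then that of E2f2.

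E2f1 (CG6376), the activating E2F factor of fly S phase, stood farthest on the negative side of all members after turning. It had -0.182 on array 1 and -0.275 on array 2 after turning, so the arrays lay on 1 side. The mean was -0.2285 ± 0.0658 (SD, n = 2), with a 95% interval of -0.466 to 0.0092 and adjusted p = 0.711 by limma. Read as log2 its size is 1.17-fold, and read as log10 it is 1.69-fold. Without turning, its mean was 0.0465 ± 0.323 (SD, n = 2), on the positive side, and Orc2 was the lowest member. CycE, a known E2f1 target in flies, lay on the other side after turning. Of the 11 measured replication members, 5 lay on the side of E2f1 on both arrays after turning and 2 on the side of CycE. The background shares of all genes were 25.0% on the negative and 24.0% on the positive side. Without turning, 1 of the replication members was negative and 3 were positive on both arrays. E2F targets were not examined as a set. E2f2 (CG1071), the repressive E2F, had 0.208 and -0.095, which do not share a side after turning. Without turning, the E2f2 mean was 0.1515 ± 0.0799 (SD, n = 2, limma adjusted p = 0.991). Dp (CG4654), the partner of both E2F proteins, had 0.012 and -0.041, close to the array medians, and 0.0265 as a mean without turning. Rbf (CG7413), the retinoblastoma protein that holds E2F in check, had -0.139 and 0.112 after turning, and -0.1255 as a mean without turning.

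The other G1 kinases and cyclins gave no shared side. CycD (CG9096), which couples growth to division with Cdk4, had 0.24 on array 1 and -0.003 on array 2, so its means of 0.1185 after turning and 0.1215 without turning rested on array 1. Cdk2 (CG10498), the kinase partner of cyclin E, had -0.16 and -0.046, both on the negative side and opposite to CycE, and -0.057 as a mean without turning. Cdk4 (CG5072) had -0.059 and 0.185, averaged over 2 probes measured on both arrays. Those probes had -0.056 and 0.086 for probe 2061, and -0.062 and 0.284 for probe 9392. Its remaining probe, 749, was measured on array 2 alone, at 0.25 after turning. Every measured Cdk4 value was thus negative before turning, and the mean without turning was -0.122. As a group the 8 measured G1/S genes of 9 had a median of 0.0215, with medians of -0.0235 on array 1 and -0.022 on array 2, so the sign of the group depended on how it was summarised. After turning, 1 of the 8 was positive and 2 negative on both arrays, and without turning 3 were positive and 2 negative, with a median of 0.0132.

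**Figure D2:**
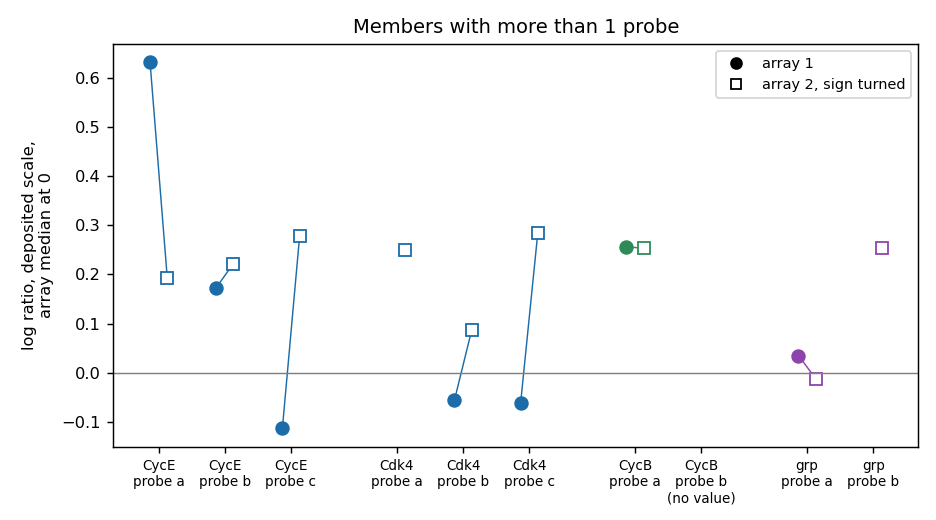
Log ratio (y axis, deposited scale, array median at 0) of each probe of the 4 members with more than 1 probe, with array 1 as filled circles and array 2 after turning as open squares. The CycE probes run from -0.113 to 0.631 on array 1 but only from 0.193 to 0.277 on array 2.

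Of the replication genes on the member list, 3 measured genes belong to the origin recognition complex. Orc5 (CG7833), a subunit of the complex, had 0.454 on array 1, the highest single-array gene value of all members, and 0.011 on array 2 after turning. Its mean of 0.2325 ± 0.313 (SD, n = 2, adjusted p = 0.862 by limma) therefore rested on array 1, as did its mean without turning of 0.2215. Orc1 (CG10667), the large subunit with ATPase activity, had 0.059 and 0.026, both on the positive side, and 0.0165 as a mean without turning. Orc2 (CG3041) had -0.163 and 0.172 after turning, which cancel to 0.0045. Without turning, the arrays matched closely, and Orc2 had the lowest such mean of the members, -0.1675 ± 0.0064 (SD, n = 2, limma adjusted p = 0.991). The subunit gene Orc4 (CG2917), outside the member list, had 0.18 and -0.299 after turning. Its mean was -0.0595 after turning and 0.2395 without turning. The loading factor Cdc6 (CG5971) had -0.002 and -0.052, and 0.025 as a mean without turning. The Cdt1 protein dup (CG8171) had 0.234 and -0.109, and a mean without turning of 0.1715 ± 0.0884 (SD, n = 2, limma adjusted p = 0.991).

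The MCM proteins form the helicase that unwinds DNA, and 4 of those on the member list were measured. Mcm2 (CG7538) had -0.162 on array 1 and -0.146 on array 2 after turning, a mean of -0.154 ± 0.0113 (SD, n = 2). Its 95% interval ran from -0.389 to 0.0806, with adjusted p = 0.940 by limma. Mcm6 (CG4039) had -0.091 and -0.19, with a mean of -0.1405 ± 0.07 (SD, n = 2, adjusted p = 0.963 by limma). Mcm3 (CG4206) had -0.052 and -0.089. These 3 subunits lay on the negative side on both arrays after turning. Without turning this was not seen, as the means were -0.008 for Mcm2, 0.0495 for Mcm6 and 0.0185 for Mcm3. Mcm5 (CG4082) did not share this pattern, with 0.134 and -0.172 after turning, and its mean without turning was 0.153 ± 0.0269 (SD, n = 2, limma adjusted p = 0.991). On array 2 these 4 listed subunits lay between -0.19 and -0.089 after turning. The gene dpa (CG1616), which encodes another MCM subunit, is outside the member list. It had -0.03 and -0.034 after turning, and 0.002 as a mean without turning.

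PCNA (CG9193), the sliding clamp of the replication fork, had -0.12 and -0.024, on the side of Mcm2, Mcm3 and Mcm6 after turning, and -0.048 as a mean without turning. RnrL (CG5371), the large subunit of ribonucleotide reductase that makes deoxynucleotides, had 0.148 and -0.15 after turning, which average to -0.001. As deposited its arrays were nearly equal, and its mean without turning was 0.149 ± 0.0014 (SD, n = 2, limma adjusted p = 0.991). The genes of DNA synthesis and licensing thus included some whose arrays matched after turning, such as Mcm2, and some that matched as deposited, such as RnrL and Orc2. Over the 11 measured replication genes of 14, 5 were negative on both arrays after turning and 2 positive (background 25.0% and 24.0%), with a median of -0.019. The medians on arrays 1 and 2 were -0.002 and -0.089. Without turning, 1 was negative and 3 were positive on both arrays, with a median of 0.025.

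**Figure D3:**
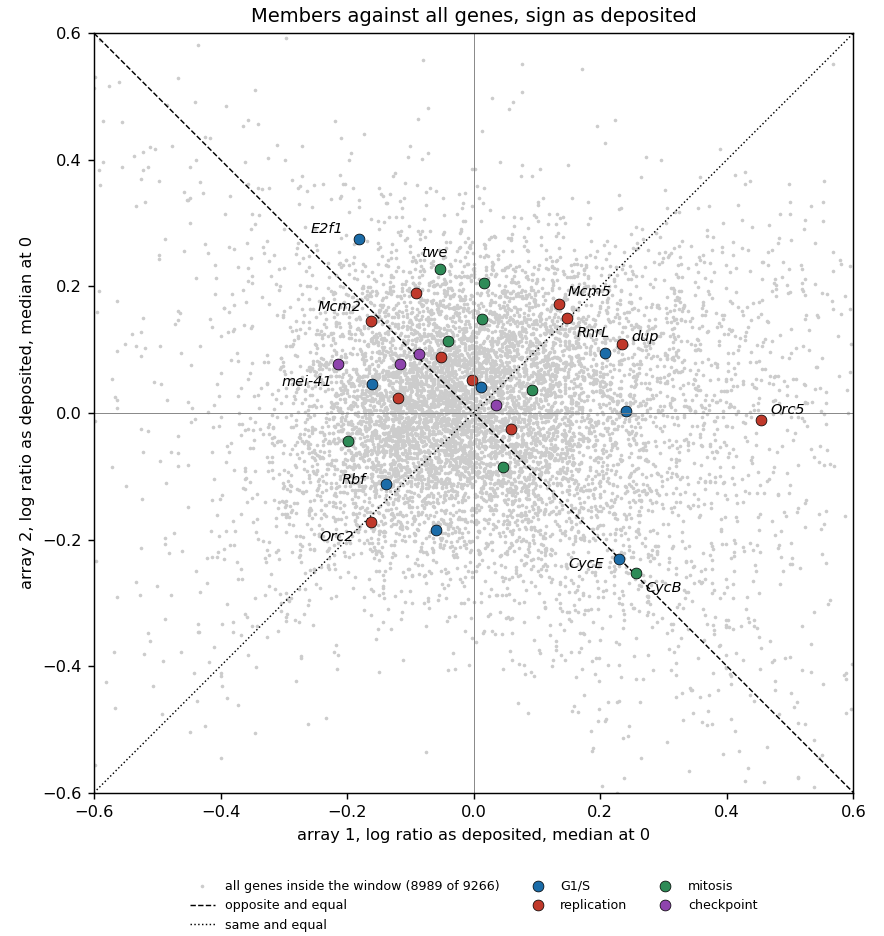
Log ratio on array 1 (x axis) against array 2 (y axis), both with the sign as deposited and the median at 0, for members coloured by role and other genes in grey (8989 of 9266 genes lie inside the window). Points near the dashed line have opposite and equal values, as CycB, CycE and Mcm2 do, and points near the dotted line have equal values, as RnrL, Mcm5 and Orc2 do.

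Mitotic genes held the member with the highest mean after turning. CycB (CG3510), a cyclin of mitotic entry, had log ratios of 0.256 on array 1 and 0.253 on array 2 after turning. Both lay on the positive side, and the mean of 0.2545 ± 0.0021 (SD, n = 2) stood at percentile 94.2 of all gene means. The limma 95% interval was 0.020 to 0.489, with an unadjusted p of 0.0369 and an adjusted p of 0.610. Its size is 1.19-fold on base 2 or 1.80-fold on base 10. CycB rested on 1 probe, since its other probe had no value on either array, and its mean without turning was 0.0015. CycB3 (CG5814), another mitotic cyclin, lay apart from it, at 0.017 and -0.206, with a mean without turning of 0.1115.

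The Cdc25 phosphatase twe (CG4965), which acts in meiosis in flies, had -0.053 and -0.227, both on the negative side, and 0.087 as a mean without turning. Activators of the anaphase-promoting complex did not lie together. The Cdc20 protein gene fzy (CG4274) had 0.013 and -0.149, whereas fzr (CG3000), the Cdh1 protein gene that also acts when cells exit the cycle and enter endocycles, had 0.047 and 0.086. The fzr mean of 0.0665 ± 0.0276 (SD, n = 2) had an adjusted p of 0.999 by limma. Without turning, the means were 0.081 for fzy and -0.0195 for fzr. The kinase gene aurB (CG6620) had -0.04 and -0.114, and Incenp (CG12165), which binds that kinase in the chromosomal passenger complex, had -0.198 and 0.044. The securin pim (CG5052), which is destroyed at anaphase, had 0.092 and -0.036. Means without turning were 0.037 for aurB, -0.121 for Incenp and 0.064 for pim. Of the 8 measured mitotic genes of 13, 2 were positive and 2 negative on both arrays, with a median of -0.0725 and array medians of 0.015 and -0.075. Without turning, 3 were positive and 1 negative on both arrays, and the median of 0.0505 lay on the other side.

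Checkpoint genes were few, with 4 of 6 measured. mei-41 (CG4252), the fly ATR kinase of the DNA damage checkpoint, had -0.214 on array 1 and -0.077 on array 2 after turning. Its mean was -0.1455 ± 0.0969 (SD, n = 2), with a 95% interval of -0.387 to 0.0959 and adjusted p = 0.956 by limma, and its mean without turning was -0.0685. Bub1 (CG14030), a kinase of the spindle checkpoint, had -0.087 and -0.093. Bub3 (CG7581), its binding partner, had -0.116 and -0.077, so both spindle checkpoint genes lay on the negative side at similar values after turning. Without turning, their means were 0.003 and -0.0195, near the array median. The Chk1 kinase grp (CG17161) had 0.035 and -0.012 on its probe with both arrays, while its other probe had 0.254 on array 2 alone after turning. The mean of the probe with both arrays was 0.0235 without turning. The checkpoint median was -0.0932, with -0.1015 on array 1 and -0.077 on array 2. Of the 4 genes, 3 were negative on both arrays, where the background was 25.0% of all genes. Without turning, 0 of the 4 were negative and 1 was positive on both arrays, with a median of -0.0083.

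**Figure D4:**
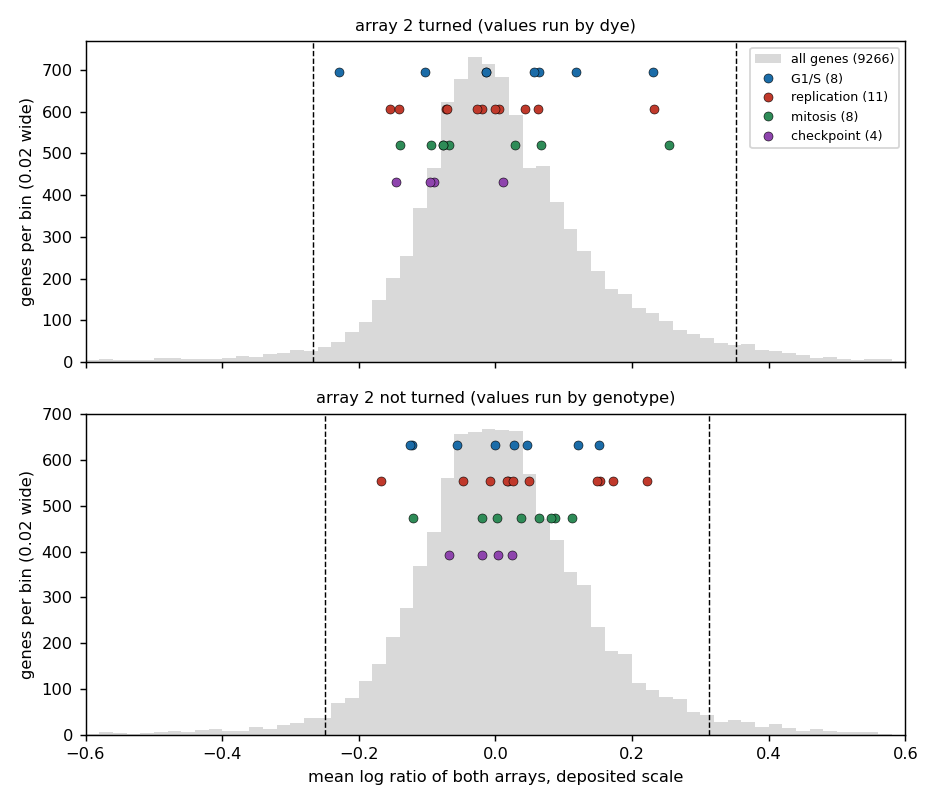
Number of genes (y axis, per bin of 0.02) by 2-array mean log ratio (x axis, deposited scale) for the 9266 genes in grey (those beyond 0.6 lie outside the axis), with array 2 turned above and not turned below. Coloured points are the members by role, at heights of no meaning, and dashed lines mark percentiles 2.5 and 97.5, inside which all 31 members lie in both panels.

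Across the 31 members the deposited values of the arrays had a Pearson correlation of -0.207 and a Spearman correlation of -0.133, against -0.0635 and -0.0131 over all 9266 genes. These are descriptions over genes that share the same arrays and extracts, and carry no test. The SD of the members was 0.164 on array 1 and 0.132 on array 2, beside 0.248 and 0.168 for all genes.

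Other genes of the same pathways were taken from 4 lists of 120 genes, of which 100 were measured on both arrays. Limma called 0 of them, with 3 (ago, tws and tefu) at an unadjusted p under 0.05, beside the background of 7.27%. Without turning it also called 0, with 1 (asl) at an unadjusted p under 0.05, beside 4.21%. Of the 100, 35 lay on the negative side on both arrays against 13 on the positive side, with background shares of 25.0% and 24.0%. Their median was -0.037, with -0.047 on array 1 and -0.031 on array 2. Without turning, the counts were 29 negative and 23 positive on both arrays, with a median of 0.0025. Other replication genes had 9 of 30 negative and 2 positive on both arrays and a median of -0.0365, while without turning 11 were negative and 8 positive, with a median of 0.0265. Prim1, a primase subunit, had the highest turned mean of these at 0.1355, and chif, the fly Dbf4 protein gene, the lowest at -0.2248. Their means without turning were 0.0845 and 0.1348.

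For other mitotic genes, 15 of 42 were negative and 6 positive on both arrays, with a median of -0.0388, and without turning 12 were negative and 9 positive, with a median of -0.0083. The PP2A regulatory subunit gene tws had 0.399 and 0.383 after turning, a mean of 0.391 ± 0.0113 (SD, n = 2, adjusted p = 0.296 by limma). Without turning, the tws mean was 0.008. The condensin gene SMC2 had -0.211 and -0.2, the lowest turned mean of that list, and -0.0055 as a mean without turning. Separase (Sse) had 0.662 and -0.049, so its mean of 0.3065, or 0.3555 without turning, rested on array 1. Other G1/S genes had 4 of 13 negative and 3 positive on both arrays, with a median of -0.0325, and without turning 5 were negative and 1 positive, with a median of -0.045. The gene ago, whose F-box protein marks cyclin E for degradation, had 0.376 and 0.21, a mean of 0.293 ± 0.117 (SD, n = 2, adjusted p = 0.540 by limma). It lay on the same side as CycE after turning, and its mean without turning was 0.083. Other checkpoint genes had 7 of 15 negative and 2 positive on both arrays, with a median of -0.0285, and without turning 1 was negative and 5 were positive, with a median of 0.0085. The ATM kinase gene tefu had -0.351 and -0.205, and its mean of -0.278 ± 0.103 (SD, n = 2, adjusted p = 0.567 by limma) was the lowest turned mean of the list, with -0.073 without turning.

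Markers of dividing larval tissues were set beside these values. Neuroblast markers had 7 of 7 measured and a median of 0.0325, with 2 negative and 2 positive on both arrays. Without turning, 2 were negative and 1 positive, with a median of 0.064. Imaginal disc markers had 10 of 12 measured and a median of -0.0405, with 5 negative and 2 positive on both arrays. Without turning, 1 was negative and 2 were positive, and the median was 0.0268. The background shares were 25.0% negative and 24.0% positive after turning, and 24.3% and 26.0% without turning. Germline markers had only 2 of 8 measured: piwi had -0.451 and -0.336 after turning, and aub had 0.748 and -0.217. Their means without turning were -0.0575 for piwi and 0.4825 for aub. Limma called 0 markers of the 3 lists, in either reading. At an unadjusted p under 0.05 there was piwi after turning, where the background was 7.27%, and aub and the disc marker ap (0.344) without turning, where the background was 4.21%. The part of tissue make-up in the members' values was not tested.

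**Figure D5:**
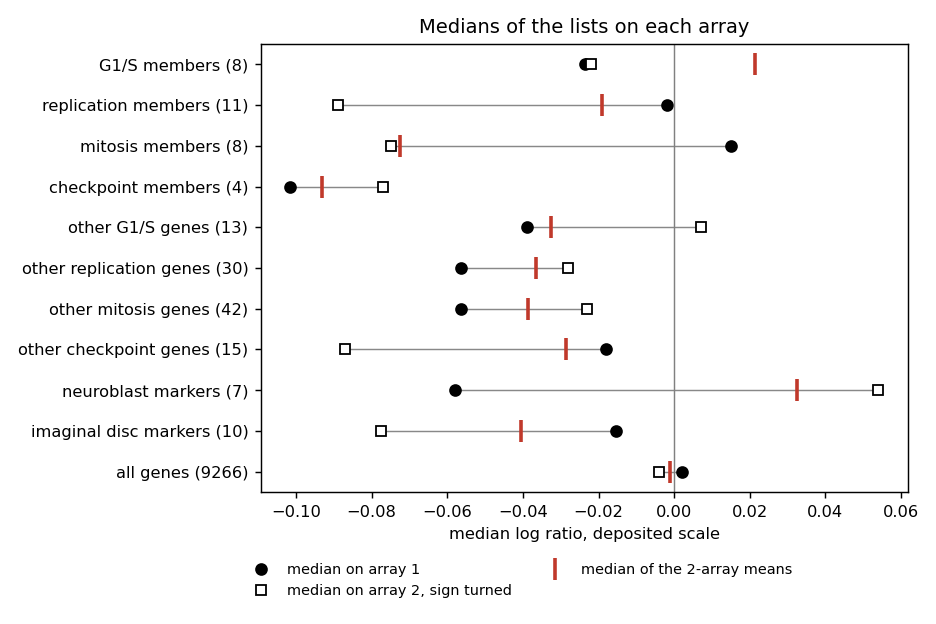
Median log ratio (x axis, deposited scale) of each list on array 1 (filled circles) and on array 2 after turning (open squares), with red bars for the median of the 2-array means and the number of measured genes in brackets. Medians of the member and pathway lists lie within about 0.1 of the array median. Array 2 lies below array 1 for replication members, mitosis members, other checkpoint genes and imaginal disc markers, and slightly for all genes.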

How the data were processed

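The authors deposited 1 table with 1 value per probe and array. The values behave as log ratios of the 2 channels but are recorded here as a score, because the deposited table states neither the log base nor the numerator. Which scanner, background correction or normalization was used is not stated. Blank cells (3996 on array 1, 1450 on array 2) and 7 cells with the code -10000 were set to missing. No column was left unused (0).

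Probes were named from the platform annotation, with 1 symbol for 13147, several for 99 and none for 2498; gene IDs of 12519 matched the RefSeq table of Release 6 plus ISO1 MT, where 0 symbols differed. The 960 unnamed features that recur at the same places in 24 blocks were left out. Arrays were centred on the median of the 10912 remaining probes measured on both, array 2 was turned, and probes of a gene were averaged. limma 3.58.1 (lmFit, eBayes, two-sided, R 4.3.3) tested 9266 genes against 0 with Benjamini-Hochberg adjustment, on 1 residual degree of freedom; the fit was tested on simulated data. With so few degrees of freedom the moderated spread is poorly estimated, so p-values and intervals are approximate. The number of arrays, 2, limits the precision.

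The members and lists were chosen with earlier results of these data known. Values in full were given for the 4 members farthest on each side with 1 sign on both arrays. They were also given for the 4 farthest without turning and for members whose probes differ. The other lists name at most 2 genes a side, besides dpa and Orc4, which were named for their complexes. Promoter sequences were not used here.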

Additional observations from a re-analysis of the deposited data

How the results depend on the processing

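The number of members called by limma was 0 under every alternative run. These were the genotype reading, no centring, unnamed features kept and arrays scaled to 1 spread. A running median over neighbouring probes, each probe on its own and the median over probes were also run. The ordinary t statistic, used in place of limma, called 0 members as well. Over all genes the count was 1 without centring (CG6271, lowest adjusted p 0.0470) and 15 by the ordinary t statistic, against 0 in the reported fit. All 15 had equal values on both arrays, which gives that statistic no spread. If the values already ran by genotype, the members' median was 0.0235 against -0.019, with 10 positive and 4 negative on both arrays against 5 and 12. That reading gave the opposite sign for 16 of 31 members, and the other settings that kept both arrays for 0 to 2. The readings differ only in the sign of array 2, so a member reversed where array 2 lay farther from its median than array 1. On a single array the members' median ran from -0.052 to -0.002, and 7 members changed sign on each. Each array holds both genotypes, so every log ratio already sets them against each other within 1 array. No further pairing was possible. With 2 arrays and no intensities, signal over background and a filter on dim probes could not be examined.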
